A study of Mus musculus with 40 samples.

Results

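The subject is 9 genes whose levels differed widely between genotypes of mouse embryonic stem cells, some of them near zero in 1 genotype and expressed in another: Cplx2, Syt2, Tsga13, Heph, Fbxo40, Slc1a1, Sh3rf2, Vrtn and Dgkk. They are 9 of the 55276 rows of the genotype table and of the time course, and 9 of the 55291 rows of the Pramel7 table. The members were chosen on measured values, namely their large changes between groups of the genotype table. Their differences in that table are therefore given as a description, counts of calls included, from which nothing is read, and tests are given only for the Pramel7 table and the time course. The question asked of each gene was whether its level went with a genotype or with a single line or library.

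RNA sequencing was done on 34 libraries of E14tg2a, an established mouse embryonic stem cell line, kept in GMEM medium with serum and leukaemia inhibitory factor. The genotype table has 2 libraries for each of 6 groups: unmodified cells (WT), a Dux knockout (DuxKO), a Dppa2 knockout (Dppa2KO), a double knockout of Ctbp1 and Ctbp2 (CtbpDKO), the triple knockout of Ctbp1, Ctbp2 and Dux (Ctbp_DuxTKO), and cells lacking Ctbp1 and Ctbp2 with a Dppa2 knockout (CtbpDKO_Dppa2KO). The title and the description of that last pair disagree, and the description was followed. The Pramel7 table has 4 further WT libraries, numbered 3 to 6, 2 further DuxKO libraries, numbered 3 and 4, and 2 libraries each of a Pramel7 knockout (P7KO), cells overexpressing Pramel7 (P7OE) and Dux knockout cells overexpressing Pramel7 (DuxKO_P7OE). The time course has 2 libraries at each of days 0, 3, 9, 12 and 18 of a series labelled CtbpDKO and Dox, in which Ctbp1 had 0 to 4 counts throughout. The labels do not say whether a genotype is 1 clone, nor whether libraries of a group came from separate cultures, so p-values measure only the spread between these libraries, which may be technical. In bulk RNA, fewer cells that express a gene and less RNA per cell cannot be told apart.

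CTBP1 and CTBP2 are corepressors that DNA-binding repressors recruit to silence genes. DUX is a transcription factor that switches on the genes of the 2-cell-like state, a rare state of embryonic stem cells that resembles the early embryo, and DPPA2 is a chromatin factor that helps to activate Dux. PRAMEL7 lowers DNA methylation in these cells by promoting loss of UHRF1, the factor that recruits the maintenance methyltransferase. Most of the 9 genes are known from differentiated tissue rather than from stem cells. Cplx2 (complexin) and Syt2 (a synaptotagmin, the calcium sensor of release) act in vesicle fusion at synapses, and Slc1a1 is a glutamate and cysteine transporter. Heph (hephaestin) oxidises iron for export from gut cells, Fbxo40 is an F-box protein of skeletal muscle, and Sh3rf2 is a RING-domain ubiquitin ligase. Dgkk is a diacylglycerol kinase, Vrtn (vertnin) is a nuclear factor linked to the number of vertebrae, and Tsga13 is a testis-expressed gene of little known function.

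The targeted genes were checked first. Ctbp1 had 0 to 4 counts in the 6 genotype libraries lacking Ctbp and 1911 to 2426 in the other 6. Ctbp2 RNA was lowered in those libraries, at 36.5 to 43.8 CPM against 187 to 236 CPM in the other 6, and not lost. Duxf3, the Dux row of the tables, had 40 and 24 counts in CtbpDKO and 0 in both Ctbp_DuxTKO libraries, but 1 and 0 in WT, so RNA cannot check the knockout in DuxKO. Likewise Pramel7 had 431 to 588 counts in the 4 overexpressing libraries and at most 4 in WT, so the P7KO label cannot be checked by RNA. In CPM (counts per 1000000 of the scaled library size) its level was 14.04 and 26.2 in P7OE and 49.3 and 56.7 in DuxKO_P7OE, so the overexpressing groups differed in Pramel7 RNA. Dppa2 RNA was lowered in Dppa2KO, at 29.1 to 33.3 CPM against 57.3 to 60.9 in WT, and not lost. In the time course Ctbp2 was at 296 to 573 CPM on days 3 and 9 and at 44.7 to 59.3 CPM on days 0, 12 and 18. The genotype libraries held 19944644 to 36025046 counts each, the Pramel7 libraries 10123058 to 30135341 and the time course libraries 16674526 to 30169626. Summed CPM of 8 embryonic stem cell markers was 2046 to 3283 in all 34 libraries. A library with 0 counts of a gene allows up to 3 counts, and such limits cover counting error only.

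Promoters are shown for the member that was higher in every library lacking Ctbp in the values below (Syt2) and for the 3 whose libraries disagreed within groups (Cplx2, Tsga13 and Slc1a1), because these 4 differ widely in CG content. They are RefSeq start-site windows of the GRCm38.p6 build, from 250 bases before to 50 bases after a start, written 5′ to 3′ on the gene's strand, and capitals mark each CG pair, the site of DNA methylation. Cplx2 lies at chr13:54302306-54302605 on the plus strand, Tsga13 at chr6:30915524-30915823 on the minus strand, Slc1a1 at chr19:28834885-28835184 on the plus strand, and the first of 2 Syt2 windows at chr1:134646362-134646661 on the plus strand.
Cplx2: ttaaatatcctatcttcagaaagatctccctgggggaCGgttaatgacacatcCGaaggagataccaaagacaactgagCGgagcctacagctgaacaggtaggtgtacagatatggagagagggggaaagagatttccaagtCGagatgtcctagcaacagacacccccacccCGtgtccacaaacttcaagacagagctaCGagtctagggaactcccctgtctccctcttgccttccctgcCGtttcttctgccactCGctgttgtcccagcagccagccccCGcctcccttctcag
Tsga13: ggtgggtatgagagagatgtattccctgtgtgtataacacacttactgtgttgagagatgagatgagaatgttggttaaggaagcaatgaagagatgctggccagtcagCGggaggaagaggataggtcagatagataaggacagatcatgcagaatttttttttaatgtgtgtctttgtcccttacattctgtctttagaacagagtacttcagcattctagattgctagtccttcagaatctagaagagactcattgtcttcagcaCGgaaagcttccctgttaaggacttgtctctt
Slc1a1: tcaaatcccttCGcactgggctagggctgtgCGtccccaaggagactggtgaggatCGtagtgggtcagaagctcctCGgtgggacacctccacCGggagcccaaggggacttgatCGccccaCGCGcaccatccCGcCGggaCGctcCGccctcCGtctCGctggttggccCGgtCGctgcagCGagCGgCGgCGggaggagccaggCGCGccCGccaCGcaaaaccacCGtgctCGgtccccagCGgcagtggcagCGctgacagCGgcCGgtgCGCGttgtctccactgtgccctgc
Syt2: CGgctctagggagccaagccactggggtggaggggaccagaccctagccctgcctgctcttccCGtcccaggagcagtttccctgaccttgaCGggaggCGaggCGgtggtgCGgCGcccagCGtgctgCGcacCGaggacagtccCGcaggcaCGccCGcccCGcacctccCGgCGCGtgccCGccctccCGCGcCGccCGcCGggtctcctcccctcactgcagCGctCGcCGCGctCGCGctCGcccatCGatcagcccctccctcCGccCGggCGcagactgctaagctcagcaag
The Tsga13 window holds 2 CG pairs, the Cplx2 window 9, the Slc1a1 window 32 and the Syt2 window 34. Over all 32851 RefSeq promoter windows the median was 7 and the quartiles were 3 and 20. The genes themselves span, in the same build, chr13:54301964-54383923 (Cplx2), chr1:134646534-134753149 (Syt2), chr6:30896981-30921570 (Tsga13), chrX:96455436-96574485 (Heph), chr16:36963461-36990530 (Fbxo40), chr19:28835135-28913960 (Slc1a1), chr12:84641019-84651455 (Vrtn) and chrX:6779306-6948363 (Dgkk), so they are spread over 7 chromosomes, and Sh3rf2 lies on another. Windows were found for 7 of the 9 members, 11 windows in all. Those not shown held 28 CG pairs (the second of Syt2), 2 or 3 (Fbxo40), 7 to 11 (Vrtn) and 26 (Dgkk). The Tsga13 window ends at 30915823, inside a span whose 5′ end on the minus strand is at 30921570. Its CG pairs therefore do not describe that end. The letters CACCTG, an E-box that the CTBP-recruiting repressor ZEB1 can bind, were searched on both strands and occurred in 2 of the 11 windows, against 20.2% of all windows. These letters show neither binding nor methylation, and the methylation libraries were not analysed here.

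In the genotype table, which chose the members, Syt2 was higher in every library lacking Ctbp, given here as a description. Among the genotypes its counts were 98 and 112 in CtbpDKO, 72 and 99 in Ctbp_DuxTKO and 29 and 29 in CtbpDKO_Dppa2KO. WT held 0 and 4, DuxKO 0 and 0, and Dppa2KO again 0 and 4. All 6 libraries lacking Ctbp, at 1.23 to 3.36 CPM, were above all 6 others, at 0 to 0.130 CPM. Of all tested genes, 14.5% separated by Ctbp loss in either direction. Against a floor of 3 counts per library, Syt2 was at least 32.1-fold higher in Ctbp_DuxTKO than in DuxKO. The Pramel7 table has no Ctbp knockout, and there Syt2 had 0 to 7 counts in all 12 libraries and did not pass the filter on low counts.

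The time course gave an independent measure of Syt2, in which the gene was low on the days when Ctbp2 was high (the plot of 4 genes by day). Its counts were 32 and 33 on day 0, 12 and 5 on day 3, 17 and 10 on day 9, 65 and 84 on day 12, and 74 and 92 on day 18. The 4 libraries of days 3 and 9, at 0.255 to 0.622 CPM, were below all 6 others, at 1.47 to 4.19 CPM. Syt2 rose by 2.74 on the log2 scale (SE 0.41) from day 9 to day 18, with an adjusted p of 0.000921 (edgeR, quasi-likelihood, adjusted by Benjamini-Hochberg), from a mean of 0.529 to 3.62 CPM. This rise passed the test under all alternatives tried, leaving out each library of either day included. The fall from day 0 to day 9 was -1.51 (SE 0.43, adjusted p = 0.0486), and it did not pass when any 1 of the 4 libraries was left out (adjusted p = 0.117 to 0.224) or when only these days were fitted (0.116). Summed markers of trophoblast were also lower on days 3 and 9 (51.5 to 93.5 CPM against 119 to 171), as were those of fibroblasts (14.2 to 16.1 against 24.2 to 52.5 CPM), and endoderm markers went from 15.7 and 16.2 CPM on day 9 to 64.8 and 56.8 on day 18, and their part in the Syt2 values was not tested. Of the 8 neuronal markers, Dcx was at 3 counts or fewer in every genotype library, whereas 6 were above 1 CPM in some library. In the time course no neuronal marker was at 3 counts or fewer throughout. The 8 neuronal markers together summed to 138 to 186.5 CPM in the libraries lacking Ctbp and 106.5 to 124 CPM in the others, and those of trophoblast to 124 to 132 against 15.5 to 43.6 CPM. Skeletal muscle markers summed to 14.1 to 27.6 against 3.96 to 7.10 CPM and fibroblast markers to 11.7 to 45.7 against 3.52 to 10.1 CPM, and the part of these 4 lists in the Syt2 values was not tested either.

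**Figure D1:**
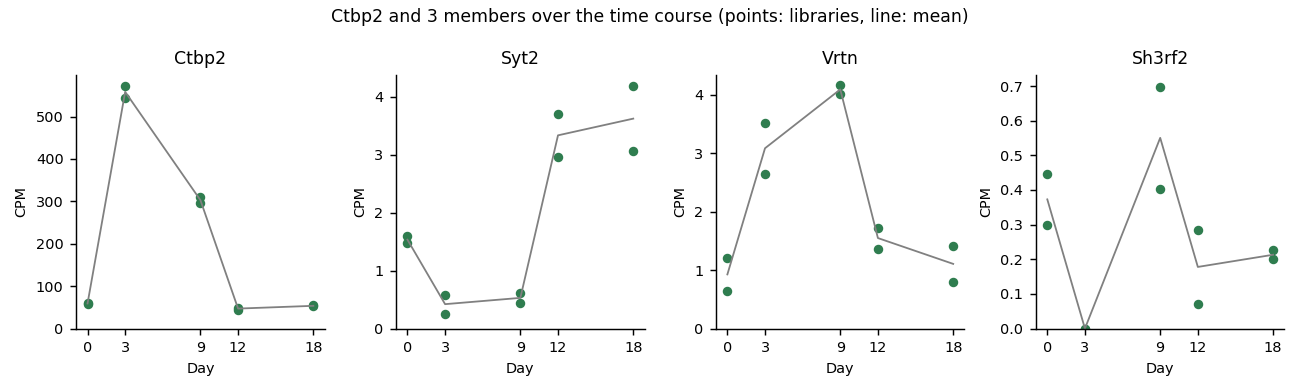
CPM (y axis) of Ctbp2, Syt2, Vrtn and Sh3rf2 by day of the time course (x axis), with 1 point per library and lines through the means of 2 libraries. Ctbp2 is high on days 3 and 9, where Syt2 is low (0.255 to 0.622 CPM) and Vrtn is high (2.65 to 4.17 CPM).

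Vrtn moved the other way in the time course but did not keep that relation across the knockouts. Its counts were 13 and 27 on day 0, 72 and 52 on day 3, 114 and 92 on day 9, 24 and 49 on day 12, and 25 and 24 on day 18. Days 3 and 9, at 2.65 to 4.17 CPM, were above all other days, at 0.647 to 1.73 CPM. Vrtn rose by 2.13 on the log2 scale (SE 0.39) from day 0 to day 9 (adjusted p = 0.00441 in edgeR's quasi-likelihood test) and changed by -1.93 (SE 0.38) from day 9 to day 18 (0.00602). The first call was lost without replicate 1 of day 0 (0.0533) and the second without replicate 2 of day 18 (0.0747). Among the genotypes Vrtn was lowest in CtbpDKO, with 16 and 13 counts, and highest in Ctbp_DuxTKO, with 133 and 132, although both lack Ctbp. WT had 92 and 75 counts, DuxKO 70 and 56, Dppa2KO 31 and 42, and CtbpDKO_Dppa2KO 48 and 50. Vrtn was 12.04-fold higher in Ctbp_DuxTKO than in CtbpDKO, and each of these groups stood apart from all other libraries. Of all tested genes, 16.2% stood apart in this way in Ctbp_DuxTKO and 7.42% in CtbpDKO. Endoderm markers also stood apart in Ctbp_DuxTKO, where they summed to 117 to 122 CPM against 31.1 to 34.3 in CtbpDKO, and their part in the Vrtn value was not tested.

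Among the Pramel7 libraries Vrtn was called in each comparison with WT, and these comparisons share the WT libraries. Its counts in WT replicates 3 to 6 were 774, 600, 536 and 428, and it had 98 and 108 in DuxKO, 196 and 145 in P7KO, 316 and 169 in P7OE, and 69 and 89 in DuxKO_P7OE. The 4 WT libraries, at 19.5 to 29.3 CPM, were above all 8 others, and 6.19% of all tested genes stood apart in this WT group. Trophoblast markers summed to 65.8 to 163 CPM in these WT libraries and to 72.1 and 75.01 CPM in DuxKO. In P7KO, P7OE and DuxKO_P7OE they summed to 28.1 to 43.05 CPM. Endoderm markers summed to 62.1 to 73.0 CPM in the overexpressing libraries and to 4.91 to 8.48 CPM in the rest. The part of both lists in the Vrtn values was not tested. By edgeR's quasi-likelihood test, Vrtn fell by 2.34 on the log2 scale (SE 0.23, adjusted p = 2.45e-05) in DuxKO against WT, by 2.06 (SE 0.22, 0.000111) in P7KO and by 1.19 (SE 0.21, 0.00185) in P7OE. These 3 calls were kept under every alternative tried, with adjusted p up to 0.00158, 0.0057 and 0.0332. The effect of Dux loss on Vrtn differed with Pramel7 overexpression: the interaction was 1.88 (SE 0.33, adjusted p = 0.00445), since DuxKO_P7OE, at 7.46 ± 1.59 CPM (SD, n = 2), was nearer to P7OE, at 10.2 CPM, than DuxKO, at 4.67 ± 1.15 CPM (SD, n = 2), was to WT, at 23.4 ± 4.41 CPM (SD, n = 4). Pramel7 RNA was higher in DuxKO_P7OE than in P7OE (49.3 and 56.7 against 14.04 and 26.2 CPM), and its part in the interaction was not tested. The WT level itself was not shared by the tables, at 2.44 to 3.09 CPM in the genotype table and at 19.5 to 29.3 CPM here, and DuxKO was at 1.86 to 2.38 CPM there and 3.86 to 5.48 CPM here. The tables were normalised separately, so levels set across them are a description.

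Heph was near zero in the genotype libraries lacking Ctbp and highest in DuxKO. Its genotype-table counts were 85 and 85 in DuxKO, 50 and 50 in Dppa2KO, 23 and 22 in WT, 6 and 0 in CtbpDKO, 2 and 3 in Ctbp_DuxTKO and 0 and 0 in CtbpDKO_Dppa2KO. All libraries lacking Ctbp, at 0 to 0.183 CPM, were below all others, at 0.717 to 2.89 CPM. Against the floor of 3 counts per library, Heph was at least 10.1-fold lower in CtbpDKO_Dppa2KO than in Dppa2KO. Over the days it stayed at 0 to 7 counts on every day, days 3 and 9 included, and did not pass the filter on low counts. Its 6 and 7 counts on day 9 were above the 0 to 4 of the other days, and no library of the time course exceeded 0.305 CPM, against 0.717 CPM in the lowest WT library of the genotype table, a description since the tables were normalised separately.

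The higher level of Heph in DuxKO than in WT was seen in both tables that hold these groups. Pramel7-table counts were 28, 34, 19 and 8 counts in WT, 60 and 65 in DuxKO, 80 and 75 in P7KO, 10 and 7 in P7OE and 2 and 6 in DuxKO_P7OE. Heph rose in DuxKO against WT by 1.67 on the log2 scale (SE 0.43, Benjamini-Hochberg adjusted p = 0.0176, edgeR) and in P7KO by 1.53 (SE 0.42, 0.0381). It fell by 2.89 (SE 0.65, adjusted p = 0.00767) in DuxKO_P7OE against DuxKO. The DuxKO, P7KO and DuxKO_P7OE calls each rested on few libraries: without 1 DuxKO library the first became 0.184 (replicate 3) or 0.0588 (replicate 4), and with only the groups compared 0.0512. The P7KO call became 0.222 and 0.187 without P7KO replicate 1 and 2 and 0.0529 and 0.0739 without WT replicate 3 and 5, and 0.0675 without WT replicates 5 and 6 together or 0.0848 with only the groups compared. Without replicate 1 of DuxKO_P7OE the third became 0.0809. In P7OE the value was -1.27 and did not pass (adjusted p = 0.124). Endoderm markers summed to 62.1 to 73.0 CPM in the 4 overexpressing libraries and to 4.91 to 8.48 CPM in the other 8, and their part in the Heph values was not tested. The gene Hsf3 overlaps Heph in the annotation, and whether the counting used strand is not given in the sources used here, so some reads could belong to either.

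Sh3rf2 was low in every DuxKO library and highest in Dppa2KO. Its counts in the genotype table were 13 and 10 in WT, 2 and 2 in DuxKO, 241 and 158 in Dppa2KO, 4 and 16 in CtbpDKO, 25 and 21 in Ctbp_DuxTKO and 11 and 12 in CtbpDKO_Dppa2KO. The Dppa2KO level was 14.6-fold that of WT, whereas CtbpDKO_Dppa2KO, at 0.508 and 0.551 CPM, was nearer to WT, at 0.326 and 0.436 CPM, than to Dppa2KO, at 6.63 and 4.48 CPM. Likewise the low level of DuxKO was not seen in Ctbp_DuxTKO. DuxKO of the Pramel7 table again had 2 and 2 counts, WT had 26, 12, 19 and 14, P7KO 4 and 32, P7OE 46 and 41, and DuxKO_P7OE 28 and 18. Sh3rf2 fell by 2.94 on the log2 scale (SE 0.90, adjusted p = 0.0407, edgeR quasi-likelihood test) in DuxKO against WT. With the 2 and 2 DuxKO counts set to the floor of 3 per library, the ratio was 5.15, which is not a lower bound. Sh3rf2 rose by 4.53 (SE 0.94, adjusted p = 0.00476) in DuxKO_P7OE against DuxKO, a ratio of 15.7 with DuxKO at the same floor. Between the same groups endoderm markers went from 7.003 to 7.89 up to 62.1 to 67.7 CPM, and skeletal muscle markers from 3.11 to 3.69 up to 16.2 to 17.4 CPM, and their part in the Sh3rf2 values was not tested. The first call was lost without DuxKO replicate 3 (0.159) or 4 (0.274), without WT replicate 3 (0.063) or 5 (0.0617), or without WT replicates 3 and 4 together (0.0521), and the second without DuxKO replicate 4 (0.0605). P7OE was 1.46 above WT and did not pass (0.0927), and the interaction of 3.07 did not pass either (0.127). Over the days Sh3rf2 had 0 counts in both libraries of day 3 and 2 to 16 counts on the other days, and its change of -1.35 from day 9 to day 18 did not pass (0.396).

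Fbxo40 was on and off between genotypes of the genotype table but its WT state was not repeated. There WT had 51 and 70 counts, Dppa2KO 103 and 93 and DuxKO 0 and 0, with 0 to 12 in the 6 libraries lacking Ctbp. Against the floor it was at least 19.8-fold lower in DuxKO than in WT. WT of the Pramel7 table had 0, 18, 0 and 8 counts, which overlaps the 6 and 6 of DuxKO. P7KO was highest, with 27 and 40 counts, while P7OE had 8 and 2 and DuxKO_P7OE 0 and 4. The value of P7KO against WT was 2.04 and did not pass (adjusted p = 0.247 in edgeR's quasi-likelihood test). On every day Fbxo40 had 0 to 2 counts. The 6 skeletal muscle markers together summed to 14.1 to 27.6 CPM in the 6 libraries lacking Ctbp, where Fbxo40 was low. In the other 6 libraries they summed to 3.96 to 7.10 CPM. Of these markers 2 were above 1 CPM in some genotype library, and Myog was at 3 counts or fewer in all. The part of these markers in the Fbxo40 values was not tested.

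Dgkk was never off in a group. Genotype-table counts were 22 and 26 for WT, 16 and 18 for DuxKO, 18 and 50 in Dppa2KO, 6 and 8 in CtbpDKO, 54 and 55 in Ctbp_DuxTKO and 4 and 0 in CtbpDKO_Dppa2KO. Ctbp_DuxTKO stood above all other libraries and was 10.4-fold above CtbpDKO, although both lack Ctbp. Of all tested genes, 16.2% stood apart in Ctbp_DuxTKO. Dgkk in the Pramel7 table had 8 to 45 counts and in the time course 4 to 40. None of its 9 values in these 2 tables passed edgeR's test.

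**Figure D2:**
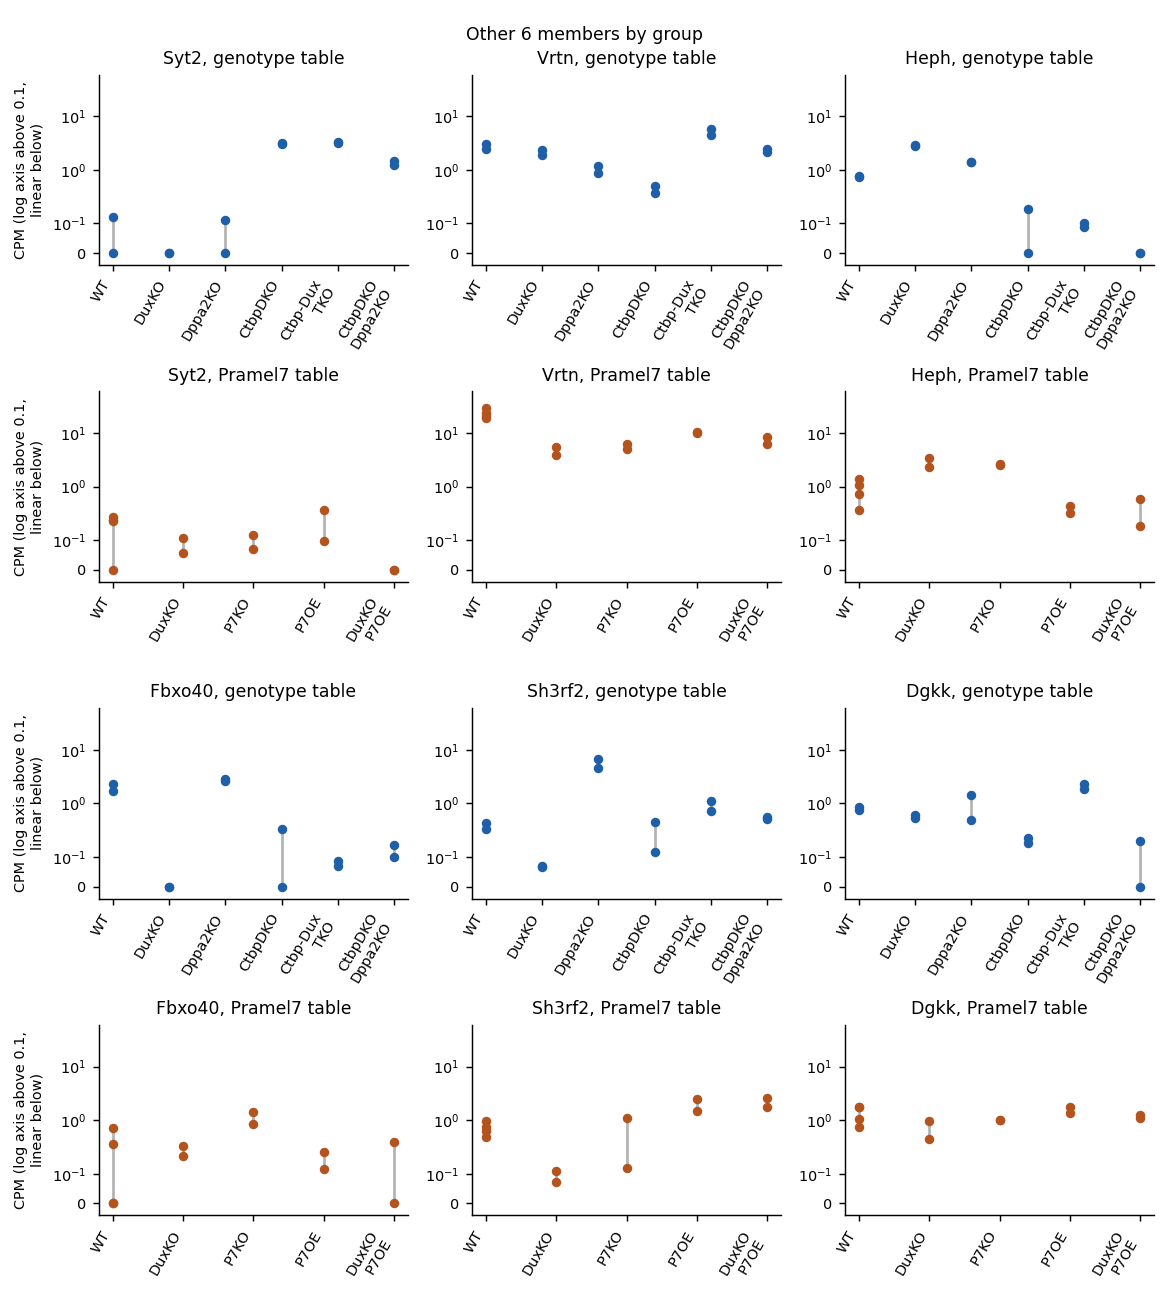
CPM (y axis, log scale above 0.1 and linear below) of Syt2, Vrtn, Heph, Fbxo40, Sh3rf2 and Dgkk by group (x axis), with 1 point per library and grey lines joining a group, in the genotype table (blue) and the Pramel7 table (orange). DuxKO libraries are above WT for Heph and below WT for Sh3rf2 in both tables, while Fbxo40 is above 1 CPM in WT of the genotype table and below it in WT of the Pramel7 table.

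For Cplx2, Tsga13 and Slc1a1, libraries of the same group often disagreed at counts well above the floor (the plot of CPM by library). Cplx2 had 552 and 2788 counts in Dppa2KO and 549 and 1732 in Ctbp_DuxTKO, against 0 to 33 in the other 8 genotype libraries. By group means it was 102-fold higher in Dppa2KO than in WT (47.1 ± 45.2 CPM, SD, n = 2, against 0.463 CPM). It was 245-fold lower in CtbpDKO_Dppa2KO than in Dppa2KO, a ratio to only 6 and 2 counts and so imprecise. With 1 library left out, the fitted log2 differences ran from 5.03 to 7.41 for the first and from -9.05 to -6.34 for the second. CtbpDKO had 0 and 5 counts, so no fold is given against it. Neither state went with the loss of Dppa2 or of Dux as such, since CtbpDKO_Dppa2KO had 6 and 2 counts and DuxKO 33 and 15. In the Pramel7 table Cplx2 had 1908 and 12 counts in the DuxKO pair, and 479, 5, 10 and 690 in WT replicates 3 to 6. The high values of that table were thus in 1 of 2 DuxKO and 2 of 4 WT libraries, and P7KO, P7OE and DuxKO_P7OE had 6 to 21 counts. In the time course 1 of 10 libraries was high, with 117 counts on day 12, and its partner had 0.

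Tsga13 was expressed in most WT libraries and close to zero in single libraries of several groups. Its genotype-table counts were 655 and 665 in WT, 1546 and 860 in DuxKO, 786 and 1186 in Dppa2KO, 405 and 0 in CtbpDKO, 40 and 0 in Ctbp_DuxTKO and 127 and 159 in CtbpDKO_Dppa2KO. All libraries lacking Ctbp, at 0 to 12.3 CPM, were below all others, at 21.6 to 52.6 CPM, and Ctbp_DuxTKO was 46.8-fold below DuxKO, with a fitted log2 difference from -13.26 to -4.57 when 1 library was left out. The same low state was not kept by the Ctbp-lacking cells of the time course, which had 552 and 1303 counts on day 0, 0 and 1215 on day 12 and 55 and 10 on day 18. On days 3 and 9 the counts were 779, 611, 1024 and 1027.

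The DuxKO genotype gave opposite states of Tsga13 in the 2 tables. Its counts were 1546 and 860 in the genotype table and 4 and 0 in the Pramel7 table, where DuxKO_P7OE had 0 and 0. In that table WT had 16, 491, 511 and 525 counts, P7KO 649 and 308 and P7OE 154 and 5. In edgeR's quasi-likelihood test Tsga13 fell by 7.40 on the log2 scale (SE 1.76, adjusted p = 0.0136) in DuxKO against WT of the Pramel7 table. That call was lost without DuxKO replicate 3 (0.0783) or 4 (0.143) and with robust estimation (0.0935). From day 9 to day 18 Tsga13 changed by -4.81 (SE 1.23, adjusted p = 0.0266), which was lost without any 1 of the 4 libraries (0.0604 to 0.206), with robust estimation (0.243) and with DESeq2 (0.184). The annotated span of the gene Copg2 lies 166 bases from that of Tsga13, which makes reads near that boundary uncertain.

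Slc1a1 also varied within groups, with no state at zero in the genotype table. The WT libraries held 12 and 44 counts, with 20 and 222 in DuxKO, 646 and 552 in Dppa2KO, 632 and 874 in CtbpDKO, 220 and 643 in Ctbp_DuxTKO and 66 and 263 in CtbpDKO_Dppa2KO. Dppa2KO was 18.2-fold above WT, with a fitted log2 difference from 3.54 (without WT replicate 1) to 5.36 (without WT replicate 2). In the Pramel7 table it had 38, 499, 30 and 81 counts in WT, 1 and 23 in DuxKO, 380 and 409 in P7KO, 33 and 24 in P7OE and 35 and 33 in DuxKO_P7OE. Thus 1 WT library was above both P7KO libraries, at 20.1 CPM against 11.9 and 14.2, and 3 were below them, at 1.16 to 3.69 CPM. Slc1a1 was -3.72 (SE 1.19, adjusted p = 0.0488 in edgeR's quasi-likelihood test) in DuxKO against WT, and this call was lost without DuxKO replicate 3 (0.272) or 4 (0.128), with only these groups fitted (0.133) and with robust estimation (0.16). Its size rested on single libraries too, at -2.06 without WT replicate 4 and -6.74 without DuxKO replicate 4. In the time course the counts were 676 and 123 on day 0, 503 and 132 on day 3, 87 and 801 on day 9, 116 and 121 on day 12, and 161 and 735 on day 18, with ranges of 6.04-fold, 3.62-fold, 10.7-fold, 1.54-fold and 2.67-fold within these days.

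**Figure D3:**
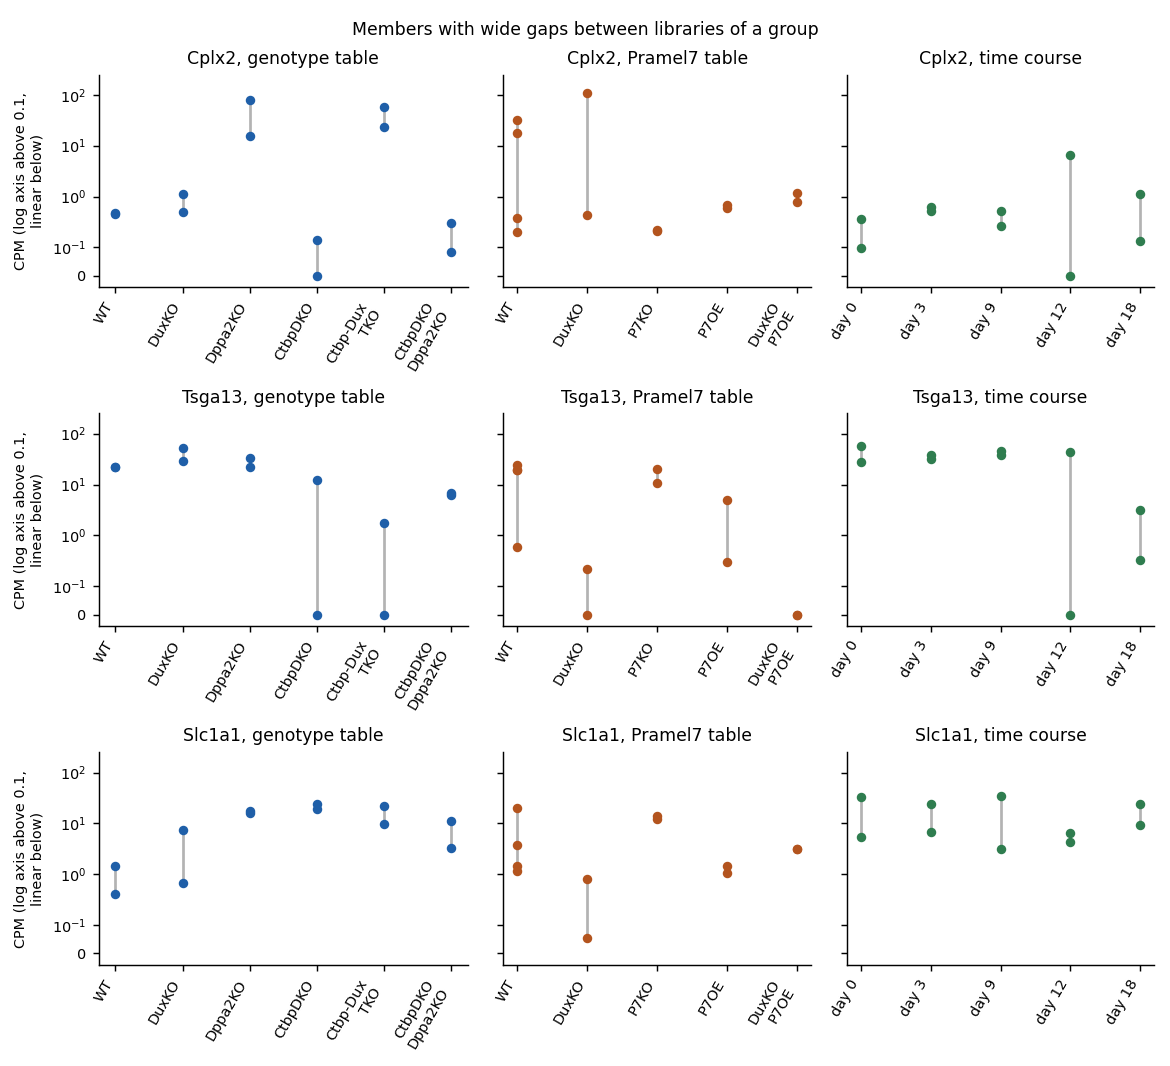
CPM (y axis, log scale above 0.1 and linear below) of Cplx2, Tsga13 and Slc1a1 in each library (points), by group (x axis), for the genotype table, the Pramel7 table and the time course. Libraries of 1 group lie far apart, as for Cplx2 in DuxKO of the Pramel7 table (107 and 0.429 CPM) and Tsga13 on day 12 (0 and 42.9 CPM).

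These gaps were counted with a measure added after the data had been seen: a gap is a 4-fold or larger range of log2 CPM (prior count 2) within a group whose highest library has at least 50 counts. It occurred in 13 of the 144 pairs of member and group, 3 of 54 in the genotype table, 5 of 45 in the Pramel7 table and 5 of 45 in the time course. All 13 were in Tsga13 (5 groups), Cplx2 (4) and Slc1a1 (4), and each of these genes had a gap in all 3 tables. The minimum of 50 counts kept out ranges past 4-fold at low counts, of which the largest of each gene were 9.27-fold for Fbxo40 (WT of the Pramel7 table, 0 to 18 counts), 5.64-fold for Sh3rf2 (P7KO, 4 and 32) and 4.08-fold for Syt2 (WT of the Pramel7 table, 0 to 7). Over all tested genes, 0.595% had a gap in 1 or more groups of the genotype table, 1.7% in the Pramel7 table and 0.611% in the time course. The largest were 486-fold and 184-fold for Tsga13 (day 12 and CtbpDKO), 207-fold and 109-fold for Cplx2 (DuxKO and WT of the Pramel7 table) and 16.2-fold for Slc1a1 (WT of the Pramel7 table). The WT group of the Pramel7 table, with 4 libraries, held such gaps in 271 genes (1.34%), whereas the other groups held them in 0.0849% to 0.298% of tested genes. In that WT group the summed stem cell markers were at 2046 and 2077 CPM in replicates 3 and 4. They were at 2634 and 2497 CPM in replicates 5 and 6, and the part of this difference in the gaps was not tested.

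The gaps did not fall in the same library for all 3 genes. On day 12, replicate 1 had 117 counts of Cplx2 and 0 of Tsga13, and replicate 2 had 0 and 1215. In WT of the Pramel7 table, Cplx2 was high in replicates 3 and 6, Tsga13 was low in replicate 3 alone, and Slc1a1 was high in replicate 4 alone. Readable genes next to the gaps did not show them. Of 78 comparisons with the 3 nearest protein-coding genes on each side, 61 had enough counts to read, and 0 of 61 passed a 4-fold difference (the plot of neighbours). Their log2 differences, high minus low library, ran from -0.70 to 0.76 with a median of 0.02. Comparisons left out for low counts included wider ones in WT of the Pramel7 table. There Hrh2 was at -2.60 beside Cplx2 (0 and 11 counts) and 4430402I18Rik at 1.72 beside Slc1a1 (24 and 6 counts). Over whole tables, the within-group SD of log2 CPM placed Cplx2, Tsga13 and Slc1a1 at or above percentile 97.8 of tested genes in every table. Fbxo40 was at percentile 92 in the genotype table and 99.4 in the Pramel7 table, and Dgkk at 89.8, 69.6 and 94.9 in the order genotype, Pramel7 and time course. Sh3rf2 (76.7 to 89.4), Syt2 (70.5 to 84.8) and Heph (81 to 81.7) were lower, and Vrtn lay between 42.5 and 71.3.

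**Figure D4:**
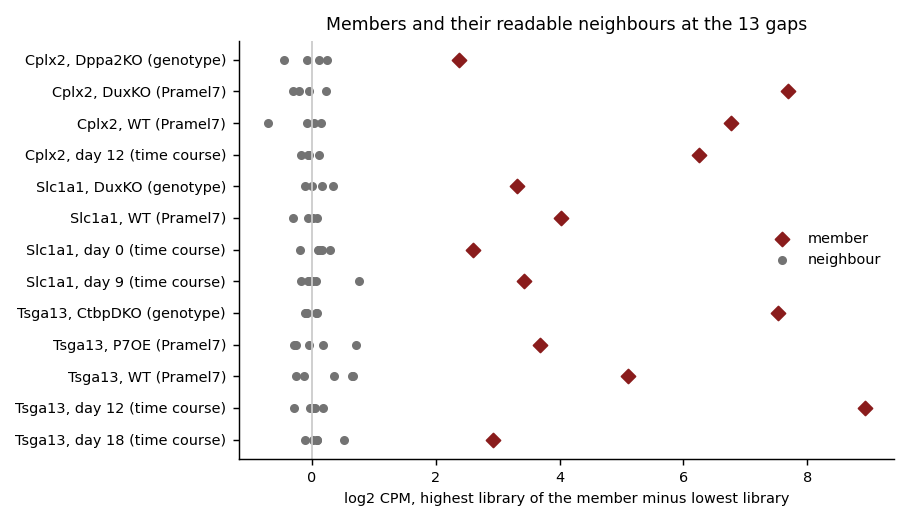
Log2 CPM of the high library minus the low library (x axis) at each of the 13 gaps (y axis), for the member (diamonds) and for its readable neighbouring genes (grey points). Neighbours lie between -0.70 and 0.76, and members at or beyond 2.

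**Figure D5:**
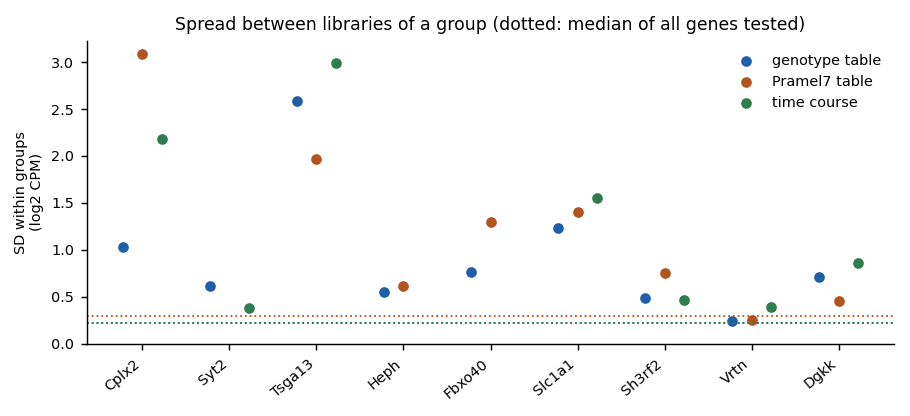
Within-group SD of log2 CPM (y axis) of each member (x axis) in the 3 tables (colours), with dotted lines at the median of all tested genes (0.225, 0.301 and 0.218). Cplx2, Tsga13 and Slc1a1 lie highest in every table, and all tested members are above the medians except Vrtn in the Pramel7 table. Vrtn is at 0.246, 0.258 and 0.388 in the order of the medians.

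Complete separation of libraries by Ctbp loss was seen for 3 of 9 in the genotype table (Syt2 higher, Tsga13 and Heph lower), where 14.5% of all tested genes separated. By Dux loss 1 of 9 separated (Cplx2, with only 0.499 CPM in the lowest Dux-lacking library against 0.470 in the highest other, beside 3.65%), and by Dppa2 loss 1 of 9 (Sh3rf2, beside 10.8%). In the Pramel7 table, Dux loss separated 1 of 8 (Tsga13 lower, beside 1.9%), and in the time course days 3 and 9 separated 2 of 7 (Syt2 and Vrtn, beside 10.5%). A gene was on in a group when every library had at least 1 CPM and off when every library had 3 counts or fewer. By that rule 4 of 9 members were on in 1 genotype and off in another in the genotype table (Syt2, Heph, Fbxo40 and Sh3rf2), 2 of 8 in the Pramel7 table (Tsga13 and Sh3rf2) and 0 of 7 in the time course. Over all tested genes the shares were 1.44%, 1.03% and 0.146%. The genotype table chose the members, so nothing is read from its counts.

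The number of called members is given with the share of all tested genes called beside it. In the genotype table, which chose them, so that the counts describe that choice and test nothing, the calls higher and lower were 2 and 3 of 9 for CtbpDKO against WT (26.1% of all tested genes), 1 and 2 for DuxKO against WT (17.5%), 3 and 1 for Dppa2KO against WT (16.4%), 3 and 0 for Ctbp_DuxTKO against CtbpDKO (8.15%) and 6 and 2 for Ctbp_DuxTKO against DuxKO (41%). They were 1 and 0 for CtbpDKO_Dppa2KO against CtbpDKO (15.4%) and 2 and 5 for CtbpDKO_Dppa2KO against Dppa2KO (30.4%). For DuxKO against WT in the Pramel7 data, 5 of 8 tested members were called, 1 higher and 4 lower (Heph up, and Tsga13, Slc1a1, Sh3rf2 and Vrtn down), with a median of -1.60 on the log2 scale against -0.01 for all tested genes, of which 16.7% were called. Leaving out replicate 3 or 4 of DuxKO left 1 call, that of Vrtn. Cplx2 was 2.10 above WT there and did not pass (adjusted p = 0.334), and without DuxKO replicate 3 its value was -4.85.

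For P7OE against WT 1 of 8 was called (19.9% of all), for P7KO against WT 2 of 8 (9.48%), for DuxKO_P7OE against DuxKO 2 of 8 (21.4%) and for the interaction 1 of 8 (7.5%). The P7OE count became 2 without WT replicate 3 or 6, and the interaction count became 2 without WT replicate 3, 4 or 5. The P7KO count became 1 without P7KO replicate 1 or 2, or without WT replicate 3 or 5, and the count for DuxKO_P7OE against DuxKO became 1 without DuxKO_P7OE replicate 1. Between DuxKO_P7OE and P7OE 0 of 8 were called by edgeR's quasi-likelihood test (0.0298% of all), with 1 at an unadjusted p under 0.05 and 0 by DESeq2. Values of at least 1 on the log2 scale that did not pass in edgeR's test were Cplx2 -4.25 (adjusted p = 0.172), Slc1a1 -2.41 (0.127, and -0.72 without WT replicate 4) and Tsga13 -2.48 (0.126) in P7OE against WT, and Cplx2 -5.82 (0.146) in P7KO against WT. In DuxKO_P7OE against DuxKO they were Cplx2 -5.75 (0.0907), Tsga13 -4.11 (0.774) and Slc1a1 2.68 (0.18), and in DuxKO_P7OE against P7OE Tsga13 -9.03 (0.439) and Slc1a1 1.37 (0.725). In the interaction they were Slc1a1 5.08 (0.0922), Heph -1.62 (0.305), Cplx2 -1.50 (0.838) and Tsga13 -1.63 (0.931). DuxKO_P7OE had 0 and 0 counts of Tsga13, so the sizes of its values depend on the prior count. Their SE was 8.63 against DuxKO, 4.03 against P7OE and 7.44 in the interaction. Against the floor, Tsga13 was at least 9.34-fold lower in DuxKO_P7OE than in P7OE. Over the days 2 of 7 were called from day 0 to day 9 (7.34% of all), 3 of 7 from day 9 to day 18 (8.89%) and 0 of 7 between days 0 and 18 (0.514%), the last with 2 at an unadjusted p under 0.05 and 0 by DESeq2, which gave no adjusted p for 3 of them. From day 0 to day 18 the values were 1.23 for Syt2 (adjusted p = 0.188), -4.87 for Tsga13 (0.128) and 1.29 for Cplx2 (0.803).

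Related genes from 6 lists (80 genes, 68 of them tested in the genotype table) were counted in the same fits, whose shares over all genes are given above. Of the 68, 18 were called in CtbpDKO against WT (26.5%), 11 in DuxKO against WT (16.2%), 7 in Dppa2KO against WT (10.3%) and 30 in Ctbp_DuxTKO against DuxKO (44.1%). In that last comparison 3 of 14 other complexins and synaptotagmins were called, 10 of 20 genes of the SNARE and vesicle release machinery, 7 of 12 iron transport genes, 5 of 9 diacylglycerol kinases, 3 of 9 muscle and SH3RF-type ubiquitin ligases and 2 of 4 SLC1 transporters. The synaptotagmin Syt11 had 49 and 70 counts in CtbpDKO and 292 and 305 in WT, the opposite direction to Syt2 (-2.51 on the log2 scale, adjusted p = 2.93e-07 in edgeR's test). Tfr2, a transferrin receptor, had 43 and 46 counts in CtbpDKO and 8 and 5 in WT (2.57, adjusted p = 0.00262). Trf (transferrin), with 35 and 38 counts against 174 and 209, had the largest called change of the listed genes in Dppa2KO against WT (-2.63, adjusted p = 1.55e-05). The muscle ubiquitin ligase Trim63, like Fbxo40, was lower in DuxKO than in WT, with 16 and 12 counts against 73 and 54 (-2.15, adjusted p = 0.00249).

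Among the Pramel7 libraries, 15 of 66 tested listed genes were called in DuxKO against WT (22.7%), 14 in P7OE against WT (21.2%) and 9 in P7KO against WT (13.6%), and in the time course 8 of 68 from day 0 to day 9 (11.8%) and 10 from day 9 to day 18 (14.7%). The largest called changes in edgeR's test were those of the diacylglycerol kinase Dgka in DuxKO against WT (-2.55, adjusted p = 7.64e-05), of Syt4 in P7OE against WT (-2.56, 0.000165) and from day 9 to day 18 (-2.07, 0.00694), and of Syt13 in P7KO against WT (-1.78, 0.00674). Unc13d, a priming factor of vesicle release, had the largest from day 0 to day 9 (-1.34, adjusted p = 0.0204). Of the 39 tested neighbours of the members, 17 were called in CtbpDKO against WT (43.6%, beside 26.1% of all tested genes) and 18 in Ctbp_DuxTKO against DuxKO (46.2%, beside 41%). The share was also higher for 9 in Ctbp_DuxTKO against CtbpDKO (23.1%, beside 8.15%). So it was for 8 in CtbpDKO_Dppa2KO against CtbpDKO (20.5%, beside 15.4%) and 15 in CtbpDKO_Dppa2KO against Dppa2KO (38.5%, beside 30.4%). Higher shares were also those of 8 in P7KO against WT (20.5%, beside 9.48%) and 10 in DuxKO_P7OE against DuxKO (25.6%, beside 21.4%). Over the days the share was higher for 8 from day 9 to day 18 (20.5%, beside 8.89%) and 1 between days 0 and 18 (2.56%, beside 0.514%). It was lower than that of all tested genes for 5 in DuxKO against WT of the genotype table (12.8%, beside 17.5%). So it was for 6 in Dppa2KO against WT (15.4%, beside 16.4%) and 2 from day 0 to day 9 (5.13%, beside 7.34%). Among the Pramel7 libraries it was lower for 5 in DuxKO against WT (12.8%, beside 16.7%) and 7 in P7OE against WT (17.9%, beside 19.9%). Between DuxKO_P7OE and P7OE 0 neighbours were called (beside 0.0298%). The gene 4430402I18Rik, 3678 bases from Slc1a1, had 116 and 118 counts in CtbpDKO and 9 and 21 in WT (2.78, adjusted p = 0.000196), the same direction as Slc1a1. Lgr6, 230151 bases from Syt2, had 101 and 96 counts in Ctbp_DuxTKO and 4 and 2 in DuxKO (5.18, adjusted p = 9.96e-06), and Syt2 had 72 and 99 in the first and 0 in the second.

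The genes whose log2 CPM was most like each member's were named over the 12 genotype libraries from 12748 candidates, and the same correlation is given in the other tables, as a description. Fbp2 was most like Syt2 (Pearson r 0.987), with r of 0.861 over the 10 time course libraries and -0.211 in the Pramel7 table, where Syt2 was near zero. Agrn was nearly as like Syt2 (0.986), but its r was 0.0557 in the time course and 0.373 in the Pramel7 table. Rims2 and Sema6a were most like Vrtn, both with r of 0.924, and over the 12 Pramel7 libraries r was -0.347 for Rims2 and 0.905 for Sema6a, with 0.337 and 0.358 in the time course. For Heph the genes were Mia3, with 0.974, 0.579 and 0.465 in the same order, and H1f10, with 0.967, -0.0918 and 0.164. For the other 6 members r with the most like gene was 0.918 to 0.97 in the genotype table and much lower in the Pramel7 table, with 0.0438 for P4ha1 and Cplx2, -0.376 for Mex3d and Tsga13, 0.301 for Kri1 and Slc1a1, 0.286 for Ranbp17 and Fbxo40, -0.316 for Apobec3 and Sh3rf2 and 0.137 for Sash1 and Dgkk. Libraries of a group share their cells, and such correlations rest largely on the differences between groups.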

How the data were processed

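RNA was sequenced from E14tg2a cells, and the values deposited by the authors are unnormalised counts of reads by gene symbol, in 3 tables with a column for each library. HISAT2, featureCounts, Trim Galore and the genome build mm10 are named in the submitters' processing notes, with tool versions, annotation and strand setting not given in the sources used here. The library kit was stranded, per the labels' protocols. Another table repeated 8 of the genotype libraries with identical values (442208 of 442208) and was left out, and the 6 bisulfite libraries were not analysed here. Every column matched a labelled sample.

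The 9 members and all gene lists were chosen with earlier results of these data known. Library sizes were scaled by TMM and tested in R 4.3.3 with edgeR 4.0.16 (filterByExpr, quasi-likelihood test, prior count 0.125, Benjamini-Hochberg over 21193, 20161 and 20612 tested genes, adjusted p under 0.05), with all groups of a table in 1 fit because most groups have 2 libraries. CPM uses the scaled library sizes. All 9 members passed the filter in the genotype table, 8 in the Pramel7 table (not Syt2) and 7 in the time course (not Heph and Fbxo40). Every member was named, with its fold change where it was called or reached 1 on the log2 scale. Of the listed and neighbouring genes, those with the largest called change were named. Bounds against zero use 3 counts per library, with 95% as the level of counting intervals. DESeq2 1.42.0, other filters, robust estimation and each library left out were alternatives, of which robust estimation and the gap measure were added after seeing the data. Replicate numbers were not taken to pair the libraries, so the main fits held the group only. The code was tested on simulated data.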

Additional observations from a re-analysis of the deposited data

Results flagged for a closer look

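In WT of the Pramel7 table, the only group of 4 libraries, 2 values of members lay far from the rest of their group by Dixon's ratio, past its 95% critical value for 4 libraries. Syt2 had 0 CPM in WT replicate 6 (ratio 0.843), where the other 3 libraries had 6, 6 and 7 counts, so the gap is a few reads. Slc1a1 had 20.1 CPM in WT replicate 4 (ratio 0.866), where the others had 1.16 to 3.69 CPM. Chance flags about 1 group in 20, and 9 members were examined.

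The effect of Dux loss on Vrtn differed between cells with and without Pramel7 overexpression, with an interaction of 1.88 on the log2 scale (adjusted p = 0.00445, edgeR quasi-likelihood test). This value passed under every alternative tried, with an adjusted p of up to 0.035. Vrtn was lower in DuxKO than in WT, with 2 of 2 DuxKO libraries below 4 of 4 WT libraries, and both DuxKO_P7OE libraries were below both P7OE libraries by a smaller distance. Pramel7 RNA and the summed markers of trophoblast and endoderm also differed among these groups, and their part in the interaction was not tested.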

How the results depend on the processing

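With 2 libraries in most groups, depth and the number of libraries limit the members' values below about 1 CPM. The count of called members in DuxKO against WT of the Pramel7 table (5) was 3 with robust estimation, 3 with only the groups compared, and 1 to 5 with 1 library left out. For P7OE against WT (1) it was 5 without a filter on low counts, 2 with only the groups compared, 2 without WT replicates 3 and 4, 3 without WT replicates 5 and 6, and 1 to 2 with 1 library left out. For P7KO against WT (2) the same settings gave 5 without a filter, 1 with only the groups compared, 1 without WT replicates 5 and 6, and 1 to 3 with 1 library left out. For DuxKO_P7OE against DuxKO (2) it was 4 without a filter and 1 to 2 with 1 library left out, and for DuxKO_P7OE against P7OE (0) it was 2 without a filter. For the interaction (1) it was 4 without a filter, 2 with DESeq2, 2 with only the groups compared and 1 to 2 with 1 library left out. In the time course, day 9 against day 0 (2) gave 1 with only the groups compared and 0 to 1 with 1 library left out, day 18 against day 9 (3) gave 1 to 2 with 1 library left out, and day 18 against day 0 (0) gave 1 without a filter and 1 with only the groups compared. The cause of these changes was not tested, except that fewer libraries or other genes entered the fits by construction. Log2 fold changes of Cplx2 reversed without DuxKO replicate 3: with 1 library left out they ran from -4.85 to 3.10 in DuxKO against WT, from -6.76 to 1.20 in DuxKO_P7OE against DuxKO and from -2.51 to 5.43 in the interaction. In day 18 against day 0 they ran from -0.78 (without day 18 replicate 1) to 2.47. Tsga13 reversed in the interaction with a prior count of 2 (1.42) and ran there from -2.88 to 2.46 with 1 library left out, above zero without DuxKO replicate 3 or P7OE replicate 1 (1.62). Of 490 values of single members under alternatives, 415 kept direction and side of the threshold, 36 lost their call and 32 gained one. Libraries of different groups with the same replicate number had a correlation over 0.1 in 2 of 30 comparisons of the genotype table. In the Pramel7 table it was 3 of 8 and in the time course 0 of 20. Groups of 2 libraries give the same correlation for both replicate numbers, so each such pair of groups is counted for both. For P7OE and DuxKO_P7OE the correlation was 0.112, and these values do not settle whether replicate numbers pair libraries. With the replicate block the count was 6 in DuxKO against WT, 0 in DuxKO_P7OE against P7OE, and 2, 3 and 0 in the time course. Over all genes, DuxKO_P7OE against P7OE gave 6 calls and 738 with the replicate block, P7KO against WT 1911 and 1073 with only the groups compared or 4693 without a filter, and P7OE against WT 4003 and 6124 without a filter. The number of gaps was 10 to 17 under the alternatives, against 13.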
